A study of Arabidopsis thaliana with 12 samples.

Results

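The genes described here are a cluster of 8 loci on chromosome 4 of Arabidopsis thaliana that encode lipid-transfer type proteins, from AZI1 (AT4G12470) and EARLI1 (AT4G12480) to AIR1 (AT4G12550). The other members are AT4G12490, AT4G12500, AT4G12510, AT4G12520 and AT4G12545. They were chosen by locus name after AT4G12490 had stood out in the authors' comparisons of volatile against control at 24 and 48 h, so the values of those comparisons are given as a description. All 8 had a row of their own among the 26797, 26605 and 26664 rows of the 3 h, 24 h and 48 h tables, none shared a row with another gene, and all 8 were tested at each time.

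The seedlings were either controls or exposed to the volatiles (mVCs in the labels) that Tolypocladium inflatum GT22, a fungus that promotes plant growth, gives off, and RNA of whole seedlings was taken at 3, 24 and 48 h. The labels give 2 libraries for each of 6 groups, 12 in all, and do not say whether the libraries came from separate cultures, so the deposited p-values may measure technical spread only. Accession, age, growth medium and copper supply of the seedlings are not given in the sources used here, and the volatiles themselves are not named. The series addressed the molecular responses that the volatiles trigger in the plant. Levels are in FPKM, that is, fragment numbers corrected for the length of the transcript and the size of the library, with 1 value per gene and group computed by the authors, so no spread between libraries can be shown and depth is unknown. Seedlings of both groups held root and leaf RNA: of 15 root markers and 14 leaf markers, none was listed at 0 in any group.

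Hybrid proline-rich proteins, the family to which AZI1 and EARLI1 belong, carry a signal peptide, a proline-rich stretch and a domain with 8 cysteines that folds into a small lipid-binding pocket. AZI1, named for its induction by azelaic acid, is needed in Arabidopsis for the priming of systemic immunity, and EARLI1, first found as an aluminium-induced gene, is also induced by cold and has been studied as an antifungal protein. AIR1 was found as a gene induced by auxin in root cultures. In the annotation the other 5 members carry no symbol of their own and are described by their domain alone.

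The cluster covers 38719 bases, and its members differ in the length of the proline-rich stretch, which AT4G12545 and AIR1 all but lack. In the TAIR10.1 assembly each member has 1 exon and 1 annotated mRNA. AZI1 to AT4G12520 lie on the minus strand, with 2112 to 4113 bases between neighbours, and AT4G12545 and AIR1 lie on the plus strand behind a gap of 12370 bases. In 7 of the 8 members the last 8 cysteine codons (TGT or TGC) begin 84 codons before the stop codon, and in AT4G12545 81 codons before it. What precedes them varies from 27 codons in AT4G12545 and AIR1 to 98 in AT4G12490. Proline codons, read as CCN in frame, made up 18.1% of the codons of AT4G12490, 16.1% of EARLI1, 15.8% of AT4G12500 and 14.9% of AZI1. They made up 7.75% in both AT4G12510 and AT4G12520, 7.21% in AIR1 and 6.48% in AT4G12545, against a median of 4.55% over 27414 protein-coding genes. The stretches from the first CCN codon to the last one before the 8 cysteine codons are shown because they set the 4 long members apart from the rest. They were read on the coding strand of TAIR10.1 as annotated by RefSeq, 5′ to 3′, with CCN codons in capitals.
AZI1, chr4:7401644-7401763, minus strand: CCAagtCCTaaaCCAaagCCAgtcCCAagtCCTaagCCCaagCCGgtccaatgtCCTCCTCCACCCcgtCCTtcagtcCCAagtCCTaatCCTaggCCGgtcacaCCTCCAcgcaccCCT
EARLI1, chr4:7406641-7406784, minus strand: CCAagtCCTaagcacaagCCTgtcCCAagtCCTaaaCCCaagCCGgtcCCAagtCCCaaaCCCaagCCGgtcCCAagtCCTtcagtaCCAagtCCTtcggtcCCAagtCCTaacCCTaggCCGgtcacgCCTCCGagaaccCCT
AT4G12490, chr4:7410100-7410285, minus strand: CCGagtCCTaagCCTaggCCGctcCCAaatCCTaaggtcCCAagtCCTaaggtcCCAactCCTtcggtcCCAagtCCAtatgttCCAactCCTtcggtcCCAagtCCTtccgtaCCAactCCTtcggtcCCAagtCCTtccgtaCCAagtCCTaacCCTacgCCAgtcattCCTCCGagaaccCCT
AT4G12500, chr4:7414639-7414803, minus strand: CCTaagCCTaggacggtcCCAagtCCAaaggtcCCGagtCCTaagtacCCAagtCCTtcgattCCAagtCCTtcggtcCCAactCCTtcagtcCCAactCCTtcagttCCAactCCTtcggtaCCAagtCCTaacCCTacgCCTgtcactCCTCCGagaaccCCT
AT4G12510, chr4:7417684-7417704, minus strand: CCTaaaCCCaaaCCTaagCCC
AIR1, chr4:7439182-7439193, plus strand: CCAagaaccCCC
The stretch held 20 CCN codons among 40 in AZI1, 22 among 48 in EARLI1, 27 among 62 in AT4G12490 and 23 among 55 in AT4G12500. AT4G12520 has the same 21 bases as AT4G12510 at this place, and in AT4G12545 a single CCN codon precedes the cysteine codons. In AIR1 the 12 bases shown begin at base 7 of the coding sequence, whereas the stretches of the first 6 members begin at base 94 or 100.

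By coding sequence the members fell into 3 groups of neighbours. Over paired bases, AT4G12490 and AT4G12500 were 92.9% identical, and AZI1, EARLI1 and these 2 genes were 86.5% to 92.9% identical to each other. AT4G12545 and AIR1 were 95.7% identical. AT4G12510 and AT4G12520 were 99.5% identical, with 2 differing bases in 390, T372C and T375C, counted from 1 at the A of the start codon, with the base of AT4G12510 first. Both differences are at codon position 3. These 2 genes share an exact run of 441 transcript bases, and 51.8% of the 50-base windows of AT4G12510 also occur in AT4G12520. Of those of AT4G12520, 58.1% occur somewhere else in the genome. Windows were taken from the annotated transcripts, which extend beyond the bounds of the rows of AT4G12510 and AT4G12520. The handling of reads that match both genes is unknown from the sources used here, so their separate values are uncertain. The share of windows found in another member was 11.9% in AT4G12545, 11.4% in AIR1, 6.78% in AT4G12490, 5.45% in AT4G12500 and 0 in AZI1 and EARLI1.

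**Figure D1:**
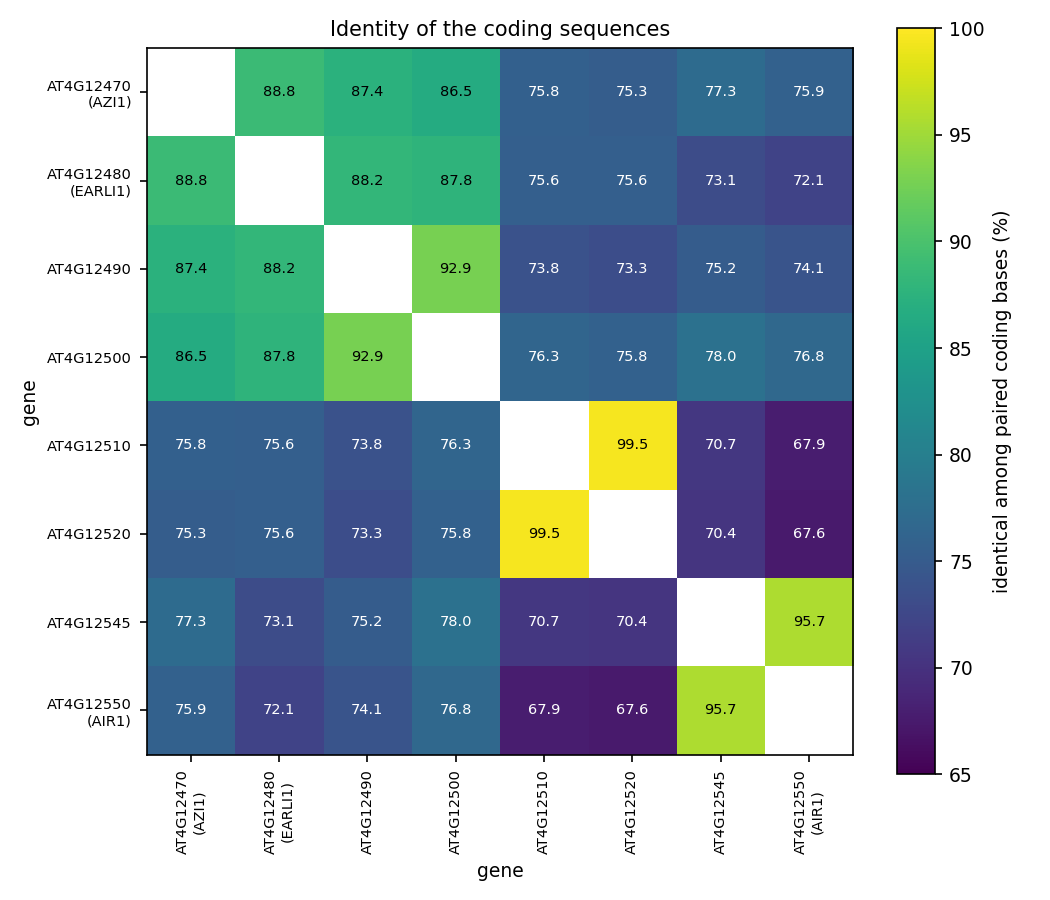
Identity between the coding sequences of the 8 members, in chromosome order on both axes, as the percentage of identical bases among paired bases of a global alignment. The blocks along the diagonal are AZI1 to AT4G12500 (86.5% to 92.9%), AT4G12510 with AT4G12520 (99.5%) and AT4G12545 with AIR1 (95.7%).

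The levels of the members spanned more than an order of magnitude within 1 table. AZI1 and EARLI1 were the most abundant, and together made up 67.9%, 73.2% and 77.5% of the summed FPKM of the cluster in controls at 3, 24 and 48 h. Under the volatiles their share was 69.8%, 74.9% and 80.1%. AT4G12500 was the lowest in all 6 groups, and the highest member stood between 32.1 and 67.5 times above it. AT4G12520 and AT4G12545 followed AZI1 and EARLI1 in every group, in that order, although the value of AT4G12520 is uncertain because of its near-identical copy. AT4G12490, AT4G12510 and AIR1 changed places from group to group. Their order, and that of AZI1 and EARLI1, cannot be judged without the spread between libraries. The ratio of EARLI1 to AZI1, both in FPKM of the same table, was 0.786 in the 3 h controls, 1.41 in the 24 h controls and 1.27 in the 48 h controls. Under the volatiles it was 0.798, 1.09 and 1.18.

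**Figure D2:**
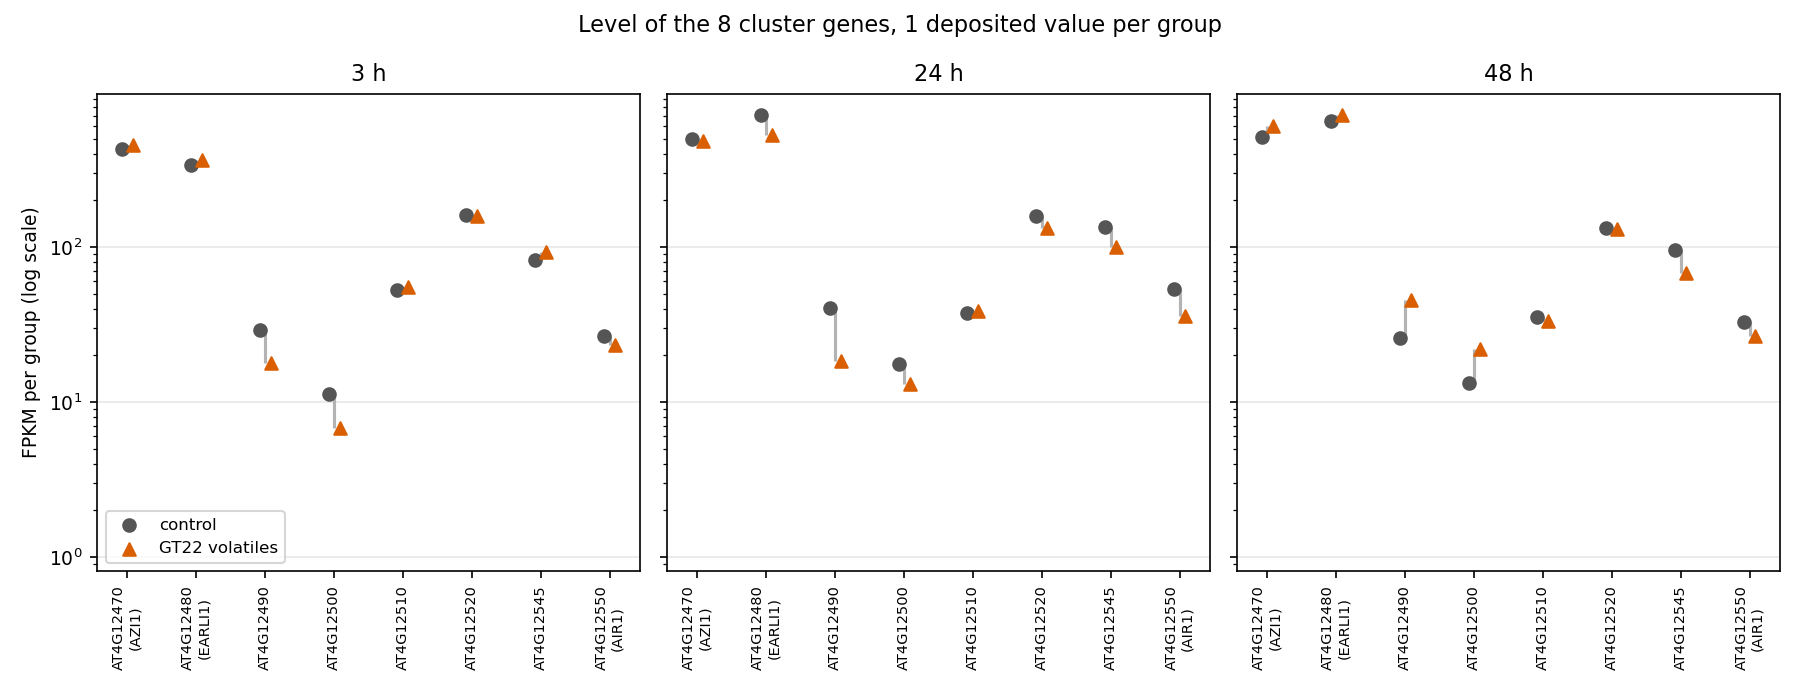
FPKM (log scale) of the 8 members in chromosome order, with 1 panel per time, circles for control and triangles for volatiles, each symbol being the authors' 1 value per group. AZI1 and EARLI1 stand between 337 and 707 FPKM, and AT4G12490 and AT4G12500 between 6.75 and 45.5 FPKM, with the gap between circle and triangle of AT4G12490 the widest of the 8 at 24 and 48 h.

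Counted over the members, 0 of 8 were called at 3 h, 1 fell at 24 h and 1 rose at 48 h, both times AT4G12490. A call means q below 0.05 in the authors' deposited tables, where 0.113% of all tested rows were called at 3 h, 0.124% at 24 h and 0.252% at 48 h in either direction, with 0.0828% lower at 24 h and 0.216% higher at 48 h. With p under 0.05 before adjustment in those tables, 2 members were lower at 3 h, 4 lower at 24 h, and 2 higher and 1 lower at 48 h. The shares of all tested rows were 1.28% lower at 3 h, 1.96% lower at 24 h, and 1.55% higher and 1.22% lower at 48 h. The rule used these contrasts, so nothing is read from the counts. The median log2 fold change of the members was 0.02, -0.42 and 0.04 at 3, 24 and 48 h, against -0.01, -0.02 and -0.00387 over all tested rows. At 24 h 7 of 8 members lay below 0, or 6 with quantile normalization, which put AZI1 above it, while at 3 and 48 h 4 lay on each side. Of all tested rows, 47.6%, 45.3% and 49.0% lay above 0 at 3, 24 and 48 h. The distance between the highest and the lowest member was 0.91 at 3 h, 1.198 at 24 h and 1.32 at 48 h on the log2 scale. Whether that distance differed between times was not tested.

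AT4G12490 was lower under the volatiles at 3 and 24 h and higher at 48 h, and it was the 1 member with calls. AT4G12490 (TAIR10 chromosome 4, 7409621 to 7410406) stood at 29.1 FPKM in controls and 17.7 FPKM under the volatiles at 3 h, at 40.3 and 18.3 FPKM at 24 h, and at 25.7 and 45.5 FPKM at 48 h. The volatile group was thus the lower one at the first 2 times and the higher one at the last. The log2 fold changes were -0.72, -1.14 and 0.82. The error beside them, the fold change divided by the deposited test statistic, was 0.31, 0.34 and 0.31. This error holds only if the statistic was the fold change over its standard error, a point the headers leave unsaid. The deposited p-values do not follow from the statistic read as a normal deviate, so the error may not be the spread behind them. In the authors' deposited table AT4G12490 fell at 24 h, by 2.21-fold, with p = 5e-05 and q = 0.0403, and rose at 48 h, by 1.77-fold, with p = 5e-05 and q = 0.0221. Both calls were lost when p-values were computed from the deposited statistic as a normal deviate. At 3 h the p-value in the authors' deposited table was 0.001 and the q-value 0.375, with 51 of 19480 tested rows at a smaller p-value. A p-value of 5e-05 is the smallest in each table, held by 22, 24 and 44 rows at 3, 24 and 48 h. The log2 fold changes at 24 and 48 h lay 1.96 apart, with a combined error of 0.46, a difference that was not tested because the gene had been chosen for it.

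AT4G12500, the neighbour of AT4G12490 and its closest relative by coding sequence, lay on the same side of 0 at each time. AT4G12500 (chromosome 4, 7414150 to 7414927) stood at 11.3 and 6.75 FPKM at 3 h, control first, at 17.6 and 13.1 FPKM at 24 h and at 13.3 and 22.0 FPKM at 48 h. Its log2 fold changes were -0.74, -0.43 and 0.73, with implied errors of 0.39, 0.40 and 0.36. No q-value in the authors' deposited table was under 0.05 for this gene: the p-values were 0.0117, 0.128 and 0.0058, and the q-value at 48 h was 0.736. The ratio of AT4G12490 to AT4G12500 in FPKM was 2.59 in controls and 2.63 under the volatiles at 3 h, 2.29 and 1.40 at 24 h and 1.93 and 2.06 at 48 h. The transcripts share an exact run of 87 bases, and 50 windows of 50 bases, so a small part of the reads of 1 gene could also match the other. The part of such reads in the likeness of the 2 genes was not tested.

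AZI1 and EARLI1 showed no called change. AZI1 (chromosome 4, 7401109 to 7401907) stood at 428 FPKM in controls and 456 FPKM under the volatiles at 3 h, at 499.9 and 484 FPKM at 24 h and at 509 and 599 FPKM at 48 h. Its log2 fold changes of 0.09, -0.05 and 0.24 were each smaller than their implied errors of 0.23, 0.27 and 0.25, and the value at 24 h was 0.04 after quantile normalization. EARLI1 (chromosome 4, 7406105 to 7406937) stood at 337 and 364 FPKM at 3 h, at 707 and 526 FPKM at 24 h and at 648 and 707 FPKM at 48 h. At 24 h it was the lower one under the volatiles, with a log2 fold change of -0.43, an implied error of 0.27 and p = 0.0271 in the authors' deposited table, which did not pass the q-value threshold. At 3 and 48 h its log2 fold changes were 0.11 and 0.13. From these errors, the 95% interval of the log2 fold change at 48 h ran from -0.26 to 0.73 for AZI1 and from -0.38 to 0.63 for EARLI1. That of AT4G12490 ran from 0.21 to 1.43 and overlapped both, which does not tell whether the genes differed. No difference between genes was tested, and the deposited p-values do not follow from these errors read as those of a normal deviate. In FPKM of the same table, AT4G12490 amounted to 8.65%, 5.70% and 3.98% of EARLI1 in controls at 3, 24 and 48 h, and to 4.87%, 3.48% and 6.43% under the volatiles.

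AT4G12510 and AT4G12520, the near-identical pair, stood close to their controls. AT4G12520 (chromosome 4, 7421056 to 7421738) had 159.9 and 159 FPKM at 3 h, 158 and 133 FPKM at 24 h and 133 and 129.7 FPKM at 48 h, control first. AT4G12510 (chromosome 4, 7417236 to 7417803) had 52.8 and 54.8 FPKM at 3 h, 37.3 and 38.8 FPKM at 24 h and 35.3 and 33.2 FPKM at 48 h. All 6 log2 fold changes were between -0.25 and 0.06 and smaller than their implied errors, which ran from 0.24 to 0.33.

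AT4G12545 and AIR1, the 2 members on the other strand, were lower under the volatiles at 24 and 48 h without passing the q-value threshold. AT4G12545 (chromosome 4, 7434199 to 7434858) stood at 82.2 and 92.9 FPKM at 3 h, at 134 and 100.1 FPKM at 24 h and at 95.7 and 67.5 FPKM at 48 h. AIR1 (chromosome 4, 7439115 to 7439805) stood at 26.5 and 23.2 FPKM at 3 h, at 53.8 and 35.8 FPKM at 24 h and at 32.7 and 26.6 FPKM at 48 h. The volatile group was lower for both genes at 24 and 48 h, while at 3 h they lay on opposite sides of the control. For AT4G12545 the log2 fold changes were 0.18, -0.42 and -0.50, with implied errors of 0.25, 0.27 and 0.27 and p-values of 0.307, 0.0305 and 0.00945 in the authors' deposited table. For AIR1 they were -0.19, -0.59 and -0.30, with implied errors of 0.30, 0.30 and 0.32 and p-values of 0.353, 0.0063 and 0.191 in the authors' deposited table. The smallest q-values of AT4G12545 and AIR1 in the authors' deposited table were 0.961 and 0.990. AT4G12490 and AT4G12500 were higher at 48 h, where AT4G12545 and AIR1 were lower.

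**Figure D3:**
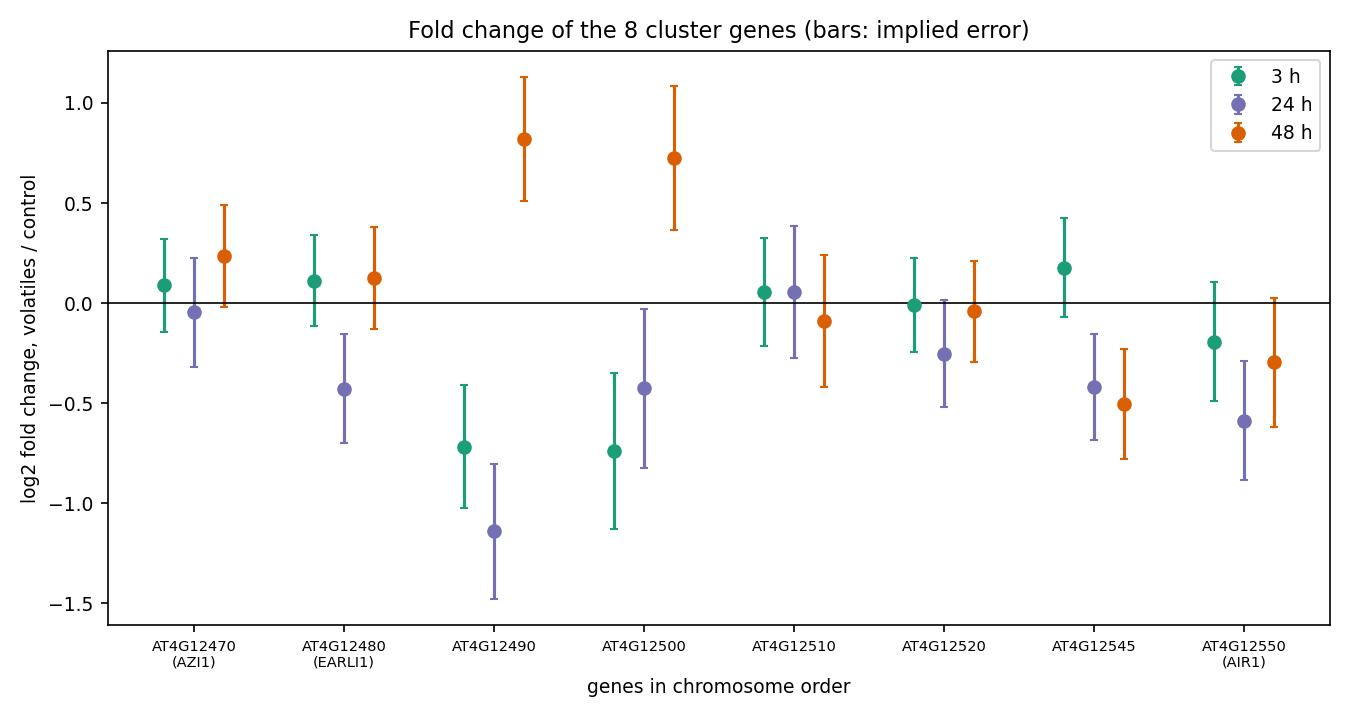
Log2 fold change of volatiles against control for the 8 members in chromosome order at 3, 24 and 48 h, with bars for 1 implied error in each direction. The implied error may not be the spread behind the deposited p-values. AT4G12490 and AT4G12500 lie below 0 at 3 and 24 h and above it at 48 h, and AT4G12545 and AIR1 lie below 0 at 24 and 48 h.

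In rows of their own, none of the tested genes around the cluster or between its members was called. AT4G12530, a relative that lies between AT4G12520 and AT4G12545, was not tested and had 0.384 FPKM or less in all groups, and AT4G12540, beside it, had between 1.41 and 3.02 FPKM. AT4G12460, the next gene before AZI1, stood at 8.62 and 8.34 FPKM at 3 h, 8.80 and 7.98 FPKM at 24 h and 9.20 and 8.75 FPKM at 48 h. AT4G12560, the next gene after AIR1, stood at 33.5 and 29.1 FPKM, 22.4 and 21.6 FPKM, and 25.4 and 23.4 FPKM. Among the 6 genes taken as flanks AT4G12580 lay farthest from 0, at -0.84 on the log2 scale at 3 h (implied error 0.97). At 24 h AT4G12580 shared a row with AT4G12590 and is not shown.

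**Figure D4:**
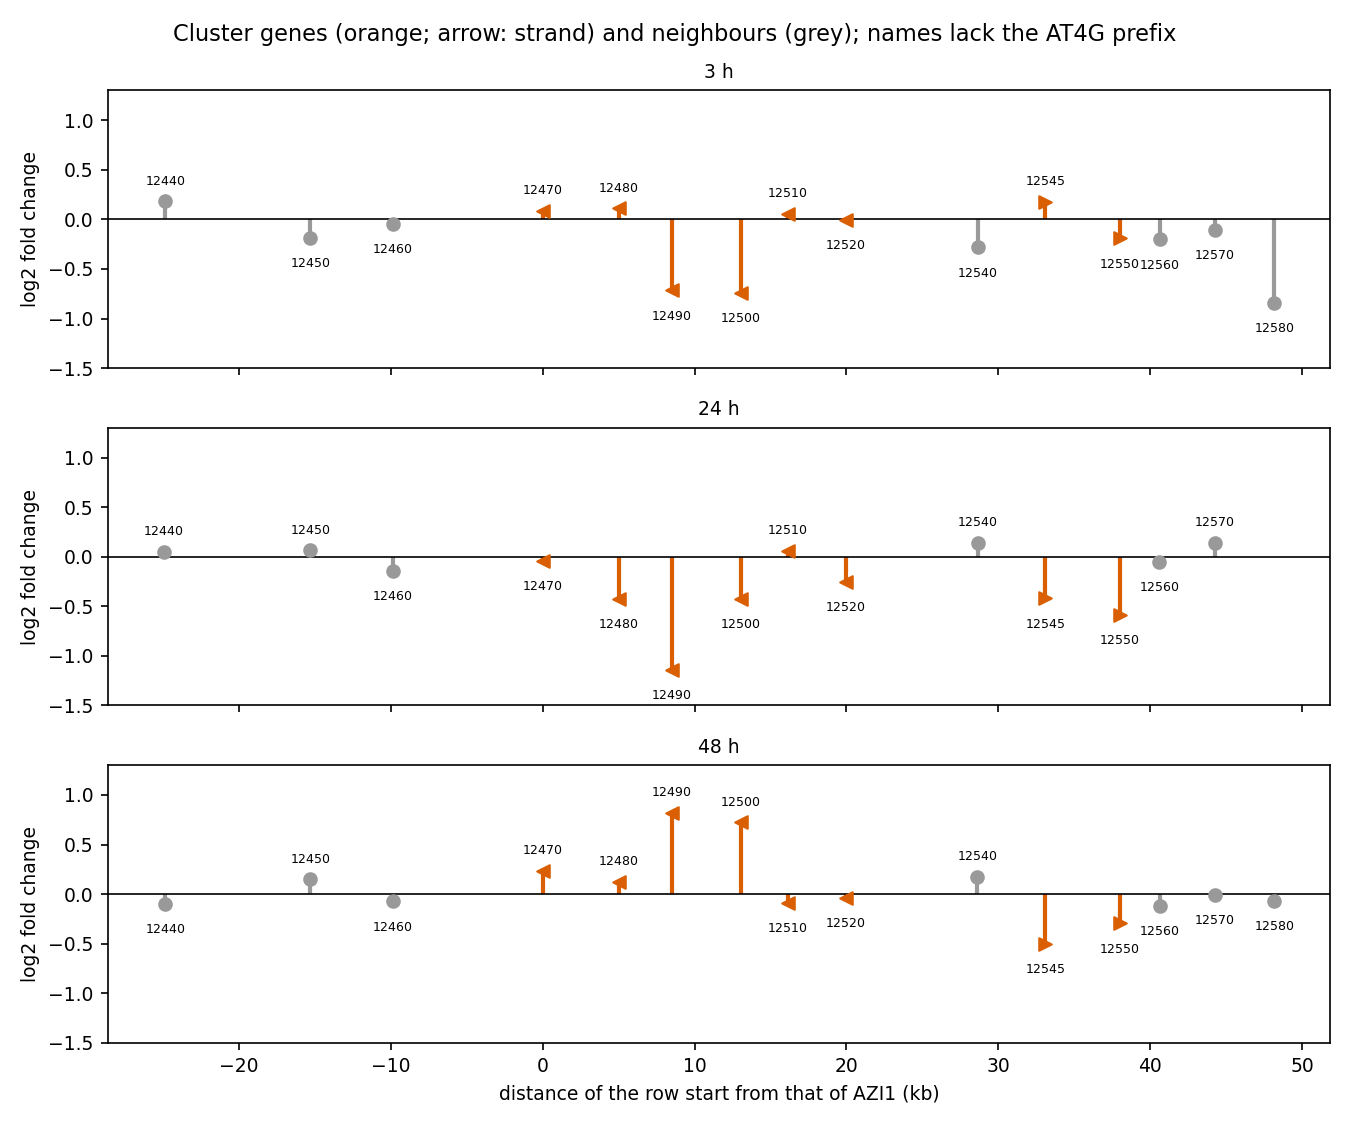
Log2 fold change of the members (orange, arrowheads pointing along the strand) and of the tested genes beside and between them (grey) against the distance of their row's start from that of AZI1 in kb, with 1 panel per time. Values beyond 0.7 in size belong to AT4G12490 and AT4G12500 at 3 and 48 h, to AT4G12490 at 24 h, and to AT4G12580 at 3 h with an implied error of 0.97.

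The pattern of AT4G12490 was compared with that of every other gene that had a row of its own, was tested at all 3 times and averaged 5 FPKM or more over the groups of each table. Likeness was the Euclidean distance over the 3 log2 fold changes, with 11677 genes compared. AT4G12500 was the nearest of all, at a distance of 0.72. The 5 nearest genes outside the cluster were AT5G39580, AT5G20790, BCB (AT5G20230), PDF2.5 (AT5G63660) and AT1G66100, at distances of 0.73 to 0.83. AT5G39580, annotated as a peroxidase, had log2 fold changes of -0.48, -0.47 and 0.997 at 3, 24 and 48 h, and rose at 48 h from 5.80 to 11.6 FPKM with q = 0.0221 in the authors' deposited table. BCB, a blue copper-binding protein, had -1.06, -0.73 and 0.26, and fell at 3 h with q = 0.0443 in the authors' deposited table. AT1G66100, annotated as a thionin, had -0.21, -1.70 and 0.49, and fell at 24 h with q = 0.0403 in the authors' deposited table. PDF2.5, a defensin-like protein, had -0.60, -1.12 and 0.02, and AT5G20790, of no annotated function, had -0.40, -0.68 and 0.30, with no call for either. Of the other members, EARLI1 was farther from AT4G12490 than 398 genes, AIR1 than 741, AT4G12520 than 1667, AZI1 than 2906, AT4G12510 than 9420 and AT4G12545 than 10430. With 3 values per gene this is a description, and the 5 genes were the same with a pseudocount of 1 FPKM.

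**Figure D5:**
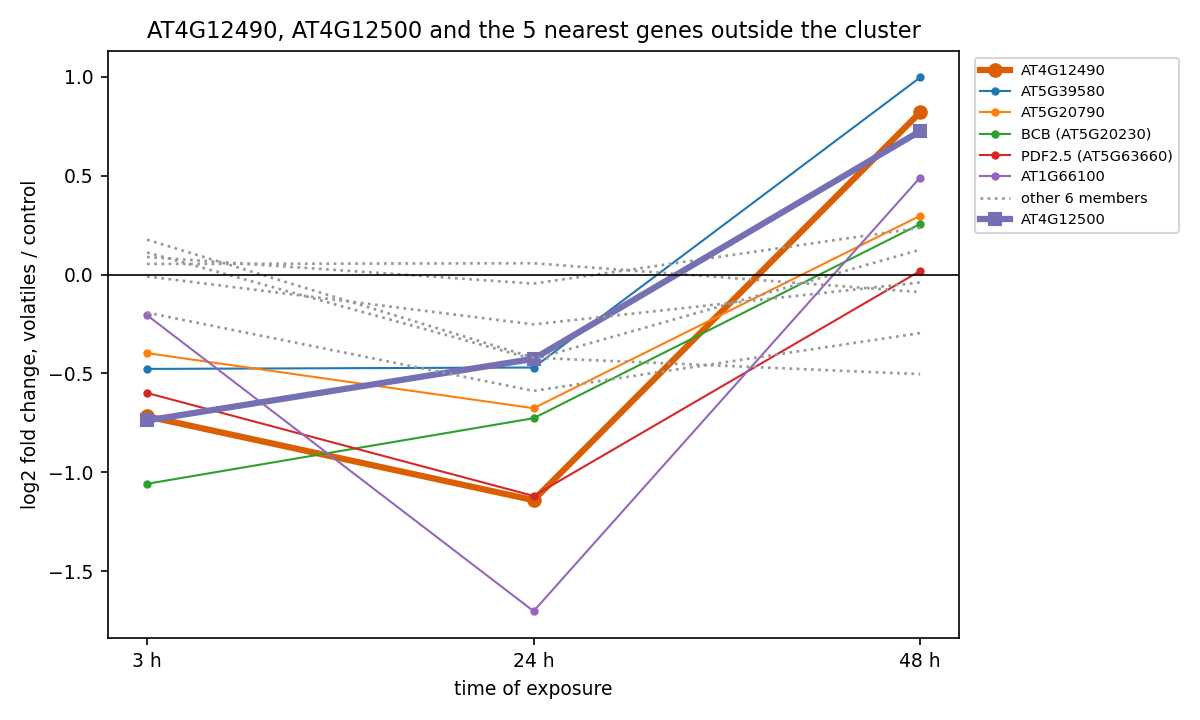
Log2 fold change of volatiles against control at 3, 24 and 48 h for AT4G12490 (thick orange), AT4G12500 (thick purple), the 5 nearest genes outside the cluster (thin lines) and the other 6 members (dotted). AT4G12490 and AT4G12500 both end above 0.7 at 48 h after lying below 0 at 3 and 24 h, and of the 5 genes outside the cluster AT5G39580 ends highest, at 0.997.

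The promoters of AT4G12545 and AIR1 are shown because these relatives were both lower under the volatiles at 24 and 48 h and their promoters are alike. Each is the 250 bases before the start of the gene in TAIR10.1 as annotated by RefSeq, on the strand of the gene, 5′ to 3′. Capitals mark TTGAC, the core of the W-box bound by WRKY factors, and TATAAAT, a form of the TATA-box, each on either strand.
AT4G12545, chr4:7433949-7434198, plus strand: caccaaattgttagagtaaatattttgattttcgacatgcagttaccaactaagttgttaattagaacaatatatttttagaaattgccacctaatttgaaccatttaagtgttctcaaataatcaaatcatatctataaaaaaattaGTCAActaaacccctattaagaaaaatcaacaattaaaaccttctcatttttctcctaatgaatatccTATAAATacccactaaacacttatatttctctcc
AIR1, chr4:7438865-7439114, plus strand: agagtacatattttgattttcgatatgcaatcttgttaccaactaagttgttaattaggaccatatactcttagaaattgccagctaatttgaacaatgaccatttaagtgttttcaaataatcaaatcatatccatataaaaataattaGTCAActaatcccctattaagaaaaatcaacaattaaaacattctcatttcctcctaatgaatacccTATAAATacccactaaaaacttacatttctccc
The promoters of AT4G12545 and AIR1 were 84.1% identical end to end, with a longest shared run of 30 bases. Both held TTGAC once, on the strand opposite to the gene, as did 44.9% of 27443 promoters of protein-coding genes on either strand. Both held TATAAAT once on the gene's own strand, beginning 34 bases before the start in AT4G12545 and 33 in AIR1. Of all promoters, 21.0% held it on either strand anywhere in the 250 bases, and the share at this place was not computed. TATAAAT was chosen after the sequences had been seen. Neither held TGACG (the core of the as-1 element), CACGTG (the G-box), GCCGCC (the GCC-box), TGTCTC (the auxin response element) or CCGAC (the core of the CRT/DRE element) in this window, against 18.6%, 6.49%, 1.87%, 10.9% and 11.97% of all promoters. TTGAC and TGACG share letters and can overlap, but no motif overlaps another in these promoters. A match is a run of letters and was not tested for binding.

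Among other genes of the family, a single one was called, a second locus on chromosome 4. The list of 21 other hybrid proline-rich genes had 20 tested members, with 0 called at 3 and 24 h. At 48 h, when 0.216% of all tested rows rose, 1 gene of the list rose. That gene, AT4G22470, annotated as a lipid-transfer family protein, stood at 14.1 and 10.5 FPKM at 3 h, at 24.9 and 24.3 FPKM at 24 h and at 28.7 and 49.2 FPKM at 48 h. Its log2 fold changes were -0.43, -0.04 and 0.77, with p = 0.0451 at 3 h and q = 0.0221 at 48 h in the authors' deposited table. This call too was lost with the statistic taken as a normal deviate. In the authors' deposited tables no other gene of the list had p under 0.05 before adjustment at any time, and the list's median log2 fold change was 0.01, -0.09 and 0.03. Of 12 type 1 lipid-transfer proteins, small secreted lipid carriers, 8 were tested. None was called at any time or had p under 0.05 before adjustment in the authors' deposited tables, and their medians were -0.08, 0.01 and 0.01. AT5G01870, of that list, stood at 74.5 and 63.4 FPKM at 3 h, 90.7 and 107.5 FPKM at 24 h and 119 and 117 FPKM at 48 h. AT2G18370 stood at 14.1 and 16.5 FPKM, 41.3 and 47.6 FPKM, and 46.6 and 54.6 FPKM. LTP2 stood at 579 and 518 FPKM at 3 h, 355 and 351 FPKM at 24 h and 333 and 339 FPKM at 48 h.

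Genes known for systemic immunity, in which AZI1 acts, were not called at any time. The list held 29 genes, among them lipid-transfer, glycerolipid, pipecolic acid and salicylic acid genes, of which 22, 23 and 24 were tested at 3, 24 and 48 h. With p under 0.05 before adjustment in the authors' deposited tables, 1 was higher at 3 h, 1 lower at 24 h and 4 higher at 48 h, and the medians were -0.02, -0.08 and 0.08. The shares of all tested rows at that level were 0.955% higher at 3 h, 1.96% lower at 24 h and 1.55% higher at 48 h. FMO1, which makes N-hydroxypipecolic acid, the signal of systemic acquired resistance, stood at 0.214 and 1.08 FPKM at 48 h. Its log2 fold change was 2.33 with an implied error of 0.85, and p = 0.0048 and q = 0.661 in the authors' deposited table. At 3 and 24 h FMO1 was not tested and had 0.387 FPKM or less in each group. AT5G03350, a legume lectin-like protein, stood at 1.62 and 0.993 FPKM at 3 h, 5.20 and 3.11 FPKM at 24 h and 1.74 and 3.77 FPKM at 48 h. Its volatile value was the lower one at 3 and 24 h and the higher one at 48 h, with p-values of 0.146, 0.0303 and 0.00945 in the authors' deposited table and no call. RBOHD, an NADPH oxidase of the immune oxidative burst, stood at 8.56 and 11.9 FPKM at 3 h. It stood at 14.1 and 15.9 FPKM at 24 h and at 15.3 and 19.7 FPKM at 48 h. The p-values of RBOHD were 0.00575, 0.368 and 0.04255 in the authors' deposited table, with no call.

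Auxin-induced genes of lateral root formation and markers of root and leaf were examined beside AIR1 and AT4G12545. Of 16 auxin and lateral root genes, 14, 14 and 15 were tested at 3, 24 and 48 h and 0 were called. At 3 and 24 h 0 had p under 0.05 before adjustment in the authors' deposited tables. At 48 h 1 was higher at that level, where 1.55% of all tested rows were higher. That gene, GH3.3, an auxin-conjugating enzyme, stood at 9.67 and 13.6 FPKM. AIR12, found in the same screen as AIR1, stood at 46.0 and 55.5 FPKM at 3 h, 59.5 and 57.6 FPKM at 24 h and 59.0 and 70.5 FPKM at 48 h. HAE, a receptor kinase of organ separation, stood at 1.97 and 1.38 FPKM at 3 h. Of 14 root markers tested at 24 h, 9 lay below 0 and 5 above it, while 45.3% of all tested rows lay above 0. TIP2;3, a vacuolar aquaporin of roots, was the 1 that fell, with 21.5 and 9.42 FPKM and q = 0.0403 in the authors' deposited table. Of all tested rows 0.0828% fell at 24 h. TIP2;3 stood at 32.9 and 26.3 FPKM at 3 h and at 17.0 and 10.4 FPKM at 48 h, with no call, and the call at 24 h was lost with the statistic taken as a normal deviate. Of the root markers in the authors' deposited tables, 0 at 3 h, 2 at 24 h and 1 at 48 h had p under 0.05 before adjustment, all lower under the volatiles. The shares of all tested rows lower at that level were 1.28%, 1.96% and 1.22% at 3, 24 and 48 h. The 15 root markers summed to 363.8 FPKM in controls and 316 FPKM under the volatiles at 24 h, to 354 and 338 FPKM at 48 h and to 343 and 356 FPKM at 3 h. Their median log2 fold change was 0.07 at 3 h, -0.04 at 24 h and -0.02 at 48 h. Over all tested rows the median was -0.01, -0.02 and -0.00387. Besides TIP2;3, the sum at 24 h moved most with CASP1, a protein of the Casparian strip named here after its values were seen, at 85.6 and 62.0 FPKM. Their part in the lower values of AIR1 and AT4G12545 at 24 and 48 h was not tested. Whether root RNA as a whole was lower was not tested, and in whole seedlings less root tissue and less RNA per root cell cannot be told apart. Of 14 leaf markers, 0 were called at any time and 0 had p under 0.05 before adjustment in the authors' deposited tables, with medians of 0.09, -0.06 and -0.07. Among them RBCS1B, a small subunit of Rubisco, stood at 3371 and 3923 FPKM at 3 h, CAB3, a light-harvesting protein, at 3959 and 5072 FPKM at 24 h, and GAPA, a Calvin cycle enzyme, at 1740.5 and 1428 FPKM at 24 h.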

How the data were processed

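RNA of whole seedlings was sequenced in 12 libraries. Reads went through Trimmomatic 3.6 and TopHat with TAIR10 as the genome build, per the submitters' processing notes. The FPKM values, p-values and q-values and the test statistic, a score, were computed by the authors and deposited in 3 tables laid out as Cuffdiff writes its gene comparisons, per the file headers. That the values are FPKM follows from this layout. Which tool wrote the tables was not given in the sources used here, and only a table's name says which time it holds. The members and lists were chosen with earlier results of these data known.

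The log2 fold change was computed again as volatile over control FPKM with no pseudocount, and the implied error as its size divided by the statistic. "Rose" and "fell" mean a deposited q-value under 0.05. Recomputed q-values (Benjamini-Hochberg over tested rows) differed by at most 5.2e-07. No library enters any test, since each table gives 1 value per group. Since each time had its own table, levels at different times stand side by side and were not compared. Row starts in the tables are counted from 0 and are printed here counted from 1. All 24696 single-gene rows compared at 48 h overlapped their gene in TAIR10.1, and 14.0% had the same bounds.

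The genes named are the 8 members, list members called at any time or else the 3 with the smallest p-values, the 5 genes nearest to AT4G12490, and the genes between the members and the 3 nearest on each side. For 3 systemic immunity genes without a row of their own no value is given. Promoters of the other members are not reported here. Pairwise alignments used Biopython 1.88, with Python 3.11.15, pandas 2.3.3 and numpy 2.4.6. Benjamini-Hochberg adjustment was tested on simulated data. Alternatives were another q-value threshold, a filter on mean FPKM, the statistic read as a normal deviate, pseudocounts of 0.1 and 1 FPKM, and quantile normalization.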

Additional observations from a re-analysis of the deposited data

How the results depend on the processing

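When p-values were computed anew from the statistic, taken as a normal deviate, with rows without a readable statistic left out, AT4G12490 was called at neither 24 nor 48 h, so 0 members were called at 24 h and 0 at 48 h. TIP2;3 among the root markers at 24 h and AT4G22470 among the hybrid proline-rich genes at 48 h were lost as well, each leaving 0. Over all rows this reading called 9, 12 and 21 at 3, 24 and 48 h, against 22, 24 and 49 in the authors' deposited tables. A threshold of 0.1 on q called 26, 29 and 71 of all rows, and left the counts of members and of list genes as they were. A filter at a mean of 1 FPKM left the counts of members as they were. The lists were run under no other alternative. Pseudocounts moved the members' medians by less than the implied error, and so did quantile normalization, which put the median at 48 h at -0.0029. The filter and merged rows could not move the medians, since every member averaged more than 1 FPKM and none was in a merged row. Among 24 log2 fold changes of members, pseudocounts of 0.1 and 1 FPKM moved none by more than 0.01 and 0.08, and quantile normalization none by more than 0.09. Quantile normalization changed 1 sign, that of AZI1 at 24 h. Leaving out each replicate in turn was not run. No paired analysis was possible because the tables hold 1 value per group and no libraries. Depth is unknown, so the precision of low values such as those of AT4G12530 cannot be given.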
